A study of Mus musculus with 12 samples.

Results

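Chondrocyte hypertrophy and cartilage mineralisation were followed through 10 genes, Col10a1, Runx2, Runx3, Mef2c, Pth1r, Alpl, Ibsp, Spp1, Enpp1 and Mgp, in cartilage explants left untreated or cultured with IL-1α or retinoic acid. Members were found by gene symbol among the 34509 symbols of a bead array with 46632 probes, and every probe of a member was taken. The symbols themselves gave 12 probes for 8 genes. Pth1r and Alpl were found under the older symbols Pthr1 and Akp2, each a synonym of a single gene in the RefSeq table, which added 3 probes and brought the set to 15 probes for all 10 genes. Of these, 11 probes for 8 genes passed a filter that asked for detection on at least 4 of the 12 arrays.

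RNA came from femoral head cartilage of 21-day-old TS-4/5∆cat mice, in which in-frame deletions remove the exons for the catalytic domains of both Adamts4 and Adamts5. Every group carried these deletions, the untreated explants included, so no array measured cartilage with the wild-type enzymes. Explants were cultured for 3 days in the presence of 10 ng/mL IL-1α, of 10 µM retinoic acid or of neither, and each treatment had 4 arrays. For each treatment, 2 arrays came from the Donut line and were labelled batch 1, and 2 came from the Gertrude line and were labelled batch 2, so line and batch cannot be told apart. The labels give 4 hips per well and a day in medium with serum before treatment, whereas the methods give 3 unpooled mice per treatment and serum-free medium. Nothing ties an array to a separate animal or culture, so p-values measure only the spread between these arrays.

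In growing cartilage, chondrocytes divide, then enlarge and switch to type X collagen, and the oldest of them let the surrounding matrix calcify before it is replaced by bone. RUNX and MEF2 transcription factors drive that switch, and parathyroid hormone-related protein, acting through its receptor Pth1r, delays it. Mineral forms where phosphate outweighs the inhibitor pyrophosphate, a balance set in part by the phosphatase Alpl and the pyrophosphate-making enzyme Enpp1, while Mgp holds calcification back.

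All levels below are normalized log2 intensities, on which a step of 1 is a doubling of signal, and levels are compared only within a probe. Between 13786 and 14965 probes were detected on the arrays of batch 1 and between 16732 and 19485 on those of batch 2. Arrays of the same treatment and batch correlated at 0.983 to 0.995 across probes, while pairs that shared a treatment but not a batch reached 0.868 to 0.902. As a check of the treatments, Cyp26b1, which breaks down retinoic acid, averaged 9.81 in untreated and 13.75 in retinoic acid explants, and Nos2, an IL-1 target, was at least 14.1-fold higher with IL-1α than in untreated explants, where it was undetected.

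Retinoic acid left 5 of the 8 measured genes lower than in untreated cartilage and 1 higher. By probe, 8 of 11 were lower and 1 was higher, against 17.1% lower and 18.2% higher among all 18200 probes tested (limma, Benjamini-Hochberg adjusted p under 0.05). The median log2 change of the 11 probes was -1.52, and that of all probes was 0.02. For IL-1α the counts were 8 lower and 0 higher, against 14.1% lower and 15.2% higher among all probes, with a median of -1.23 for the 11 probes and 0.02 for all. Both comparisons use the same untreated arrays and are not independent of each other. In whole tissue, fewer cells of a type and less RNA per cell cannot be told apart.

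**Figure D1:**
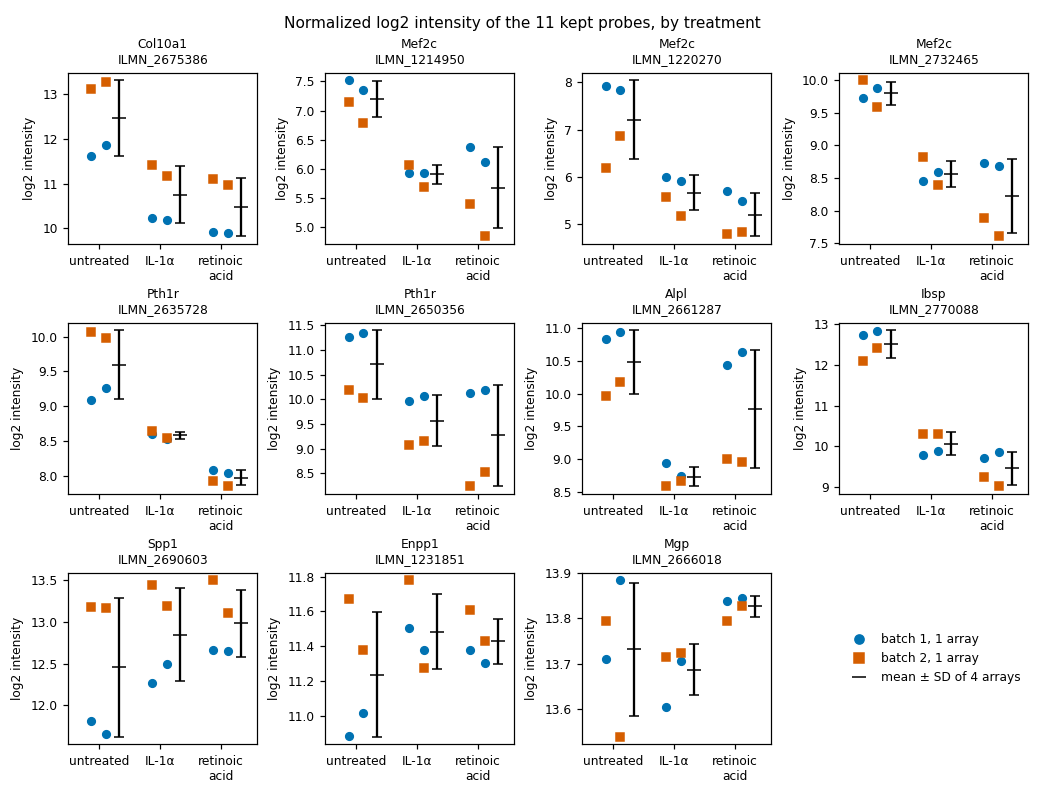
Each panel shows 1 kept probe, with normalized log2 intensity on the vertical axis and the treatments on the horizontal axis. Each symbol is 1 array (circles batch 1, squares batch 2) and the bar is the mean ± SD of 4 arrays. Col10a1 and Ibsp separate untreated from treated arrays completely, while Spp1 ranges from 11.66 to 13.18 within the untreated group, by batch.

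Ibsp, or bone sialoprotein, is a secreted protein of mineralising cartilage and bone, and it showed the largest fall among the members with each treatment. The untreated arrays stood at 12.73 and 12.83 (batch 1) and at 12.09 and 12.41 (batch 2). With IL-1α the values were 9.78 and 9.88 in batch 1 and 10.29 and 10.31 in batch 2. With retinoic acid they were 9.72 and 9.86 in batch 1 and 9.23 and 9.01 in batch 2. Every treated array lay below every untreated array. The log2 change was -3.06 with retinoic acid (95% interval -3.51 to -2.61), an 8.34-fold drop, at an adjusted p of 1.58e-07 in limma. IL-1α lowered Ibsp by a log2 change of -2.45 (95% interval -2.90 to -1.999), or 5.47-fold, at a limma adjusted p of 3.14e-06. The retinoic acid effect was alike in size in both batches, -2.99 and -3.13, but the IL-1α effect was -2.95 in batch 1 and -1.95 in batch 2, a difference of 1.00 (limma interaction, adjusted p = 0.0212).

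Spp1, or osteopontin, is another phosphoprotein of the same family and a neighbour of Ibsp on chromosome 5, with Mepe between them in the gene order. It did not share the fall. Untreated arrays gave 11.82 and 11.66 in batch 1 and 13.18 and 13.17 in batch 2, against 12.27 and 12.49, then 13.43 and 13.19, with IL-1α. Retinoic acid arrays gave 12.67 and 12.65 in batch 1 and 13.49 and 13.11 in batch 2. In batch 1 all treated arrays were above the untreated ones, while in batch 2 the IL-1α arrays lay barely above and the retinoic acid arrays on both sides of them. The fitted rise with retinoic acid was 0.52 (95% interval 0.18 to 0.87, limma adjusted p = 0.0217), made up of 0.92 in batch 1 and 0.13 in batch 2. Over all arrays the treatments overlapped (two-sided exact permutation test, p = 0.343). That call was lost when any of the batch 1 arrays of untreated or retinoic acid explants was left out, with adjusted p up to 0.106, and also with no filter (0.0839) or no batch term (0.570). For IL-1α the Spp1 difference was 0.39 (95% interval 0.04 to 0.73, adjusted p = 0.0864), and it passed at 0.0254 when the untreated replicate 2 of batch 2 was left out. Spp1 levels in batch 2 lay between 13.11 and 13.49, and the highest normalized value of any probe was 14.24.

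Col10a1 encodes type X collagen, the defining matrix protein of hypertrophic chondrocytes. Its untreated values were 11.61 and 11.86 in batch 1 and 13.11 and 13.26 in batch 2. IL-1α explants read 10.23 and 10.18, then 11.43 and 11.18, and retinoic acid explants read 9.91 and 9.90, then 11.10 and 10.97, in the same order. All treated arrays were lower than all untreated arrays, even though batch 2 stood above batch 1 in every treatment. The change was -1.99 with retinoic acid (95% interval -2.27 to -1.72, limma adjusted p = 9.26e-08), a 3.98-fold fall, and -1.71 with IL-1α (-1.98 to -1.43, limma adjusted p = 9.32e-07), a 3.27-fold fall. Within batches the change was -1.83 and -2.16 for retinoic acid and -1.53 and -1.89 for IL-1α. Leaving out any array kept the retinoic acid change between -2.10 and -1.88 and the IL-1α change between -1.81 and -1.60.

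Promoters of Ibsp, Spp1 and Col10a1 are shown because these matrix genes gave the clearest contrast, with falls in Ibsp and Col10a1 beside a small rise in Spp1. The sequences run 5′ to 3′ on the gene's strand, from 250 bases before the RefSeq start to 50 after it, in build GRCm38.p6, and all of them lie on the plus strand. Capitals mark the core letters bound by RUNX factors, TGTGGT, or ACCACA where they lie on the other strand.
Ibsp, chr5:104299037-104299336: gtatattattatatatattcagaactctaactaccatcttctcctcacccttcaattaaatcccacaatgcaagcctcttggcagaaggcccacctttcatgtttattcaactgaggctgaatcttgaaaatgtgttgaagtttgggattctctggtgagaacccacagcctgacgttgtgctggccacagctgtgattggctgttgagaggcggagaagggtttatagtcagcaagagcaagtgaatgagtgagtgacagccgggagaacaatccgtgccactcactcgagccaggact
Spp1, chr5:104434861-104435160: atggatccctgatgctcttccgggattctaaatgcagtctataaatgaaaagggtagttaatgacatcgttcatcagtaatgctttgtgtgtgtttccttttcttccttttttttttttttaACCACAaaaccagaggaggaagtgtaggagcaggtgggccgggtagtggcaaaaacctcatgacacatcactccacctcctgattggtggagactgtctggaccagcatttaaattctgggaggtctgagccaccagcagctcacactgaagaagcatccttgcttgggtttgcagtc
Col10a1, chr10:34389731-34390030: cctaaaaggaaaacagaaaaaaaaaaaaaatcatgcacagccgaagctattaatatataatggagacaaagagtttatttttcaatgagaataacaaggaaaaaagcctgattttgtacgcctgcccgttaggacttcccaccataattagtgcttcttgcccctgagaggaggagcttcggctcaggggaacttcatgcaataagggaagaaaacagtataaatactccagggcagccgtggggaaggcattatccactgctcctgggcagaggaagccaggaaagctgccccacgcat
The RUNX core was present once in this Spp1 window, starting at -128 from the start site, and was absent from the windows of Ibsp and Col10a1 and from a second, downstream Spp1 window. Of all 32851 RefSeq promoter windows of this length, 16.8% held the core on either strand, and 4 of 16 windows of the members did, those being 1 each of Enpp1, Runx2, Runx3 and Spp1. The nuclear receptor core GGTCA was in 40.5% of all windows and in 6 of the 16. Of the direct repeats bound by retinoic acid receptors, 1 exact form was searched, with GGTCA in both repeats and 5 bases between them. It was in 0.1% of all windows and 0 of the 16. So rare a match makes its absence from 16 windows uninformative, and other forms of the repeat were not searched. Mgp had no window in the table.

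Among the transcription factors, Mef2c was the one with usable signal. MEF2C switches on Col10a1 and other genes of hypertrophy, and 3 of its 4 probes passed the filter. On the brightest, ILMN_2732465, untreated arrays stood at 9.73 and 9.88 (batch 1) and at 9.99 and 9.58 (batch 2). IL-1α gave 8.45 and 8.59, then 8.83 and 8.39, and retinoic acid gave 8.72 and 8.69, then 7.89 and 7.61. No treated array reached the untreated range on any of the 3 probes. Retinoic acid changed the 3 probes by -1.52, -2.002 and -1.57, and IL-1α by -1.29, -1.54 and -1.23, with limma adjusted p of 4.36e-04 or less. On ILMN_2732465 the retinoic acid effect was -1.10 in batch 1 and -2.03 in batch 2 (interaction -0.94, limma adjusted p = 0.0215), while IL-1α gave -1.28 and -1.18. ILMN_1220270, on which that change was largest, was undetected on both batch 2 arrays with retinoic acid. The Mef2c probe ILMN_2520812 was undetected on all 12 arrays.

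Runx2 and Runx3, the RUNX factors that start and sustain hypertrophy, could not be measured here. Each of the 2 Runx2 probes was detected on 1 array, in the untreated group of batch 2, and the Runx3 probe on 0 arrays. Their values lay between 4.41 and 5.24, below or near the weakest signal counted as detected, which was 4.86 to 5.48 depending on the array. These readings set no limit on the proteins or on transcripts that the probes miss.

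Pth1r, the receptor for parathyroid hormone-related protein, is made by chondrocytes about to become hypertrophic. On ILMN_2635728 the untreated arrays stood at 9.09 and 9.26 (batch 1) and at 10.06 and 9.97 (batch 2), and the IL-1α arrays at 8.61, 8.53, 8.65 and 8.55. With retinoic acid the probe gave 8.09 and 8.04, then 7.92 and 7.85. The 3 treatments formed an order without overlap, untreated above IL-1α above retinoic acid. Retinoic acid lowered this probe by a log2 change of -1.62 (95% interval -2.02 to -1.22) and IL-1α by -1.01 (-1.41 to -0.61), both past the limma threshold, with adjusted p of 1.79e-05 and 0.00136. Both falls were larger in batch 2, -2.13 against -1.10 for retinoic acid and -1.42 against -0.60 for IL-1α (interaction adjusted p = 0.0138 and 0.0308 in limma).

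The other Pth1r probe, ILMN_2650356, fell by 1.44 with retinoic acid and by 1.14 with IL-1α, with limma adjusted p of 2.09e-05 and 2.77e-04. Its untreated values ran the opposite way between batches, 11.26 and 11.34 in batch 1 against 10.18 and 10.03 in batch 2. In untreated tissue batch 2 exceeded batch 1 by 0.84 on the first probe and was lower by a difference of -1.19 on this one. Within each batch every treated array was below the untreated ones, and across batches the treatments overlapped (two-sided exact permutation test, p = 0.114 for retinoic acid and 0.0571 for IL-1α). Both calls were lost without a batch term, with adjusted p of 0.0931 and 0.251. The probes thus had the same direction with treatment and disagreed on which batch was higher.

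Alpl, tissue-nonspecific alkaline phosphatase, frees phosphate and destroys pyrophosphate so that mineral can form. Without treatment its level was 10.83 and 10.94 in batch 1, and 9.96 and 10.18 in batch 2. IL-1α brought it to 8.95 and 8.74 in batch 1 and 8.60 and 8.67 in batch 2, below every other array. Under retinoic acid it read 10.44 and 10.64 in batch 1 but 9.01 and 8.97 in batch 2, so only the batch 2 arrays fell clear of the whole untreated group. The IL-1α change was -1.74 (95% interval -2.21 to -1.27, limma adjusted p = 8.45e-05), a 3.34-fold fall. The retinoic acid change was -0.72 (95% interval -1.19 to -0.24, limma adjusted p = 0.0214), made up of -0.35 in batch 1 and -1.09 in batch 2. This smaller call was lost without untreated replicate 2 of either batch and without either retinoic acid array of batch 2, with adjusted p up to 0.101, and also with no filter (0.126) or no batch term (0.333). The exact permutation p was 0.257.

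Enpp1, which makes pyrophosphate outside the cell, and Mgp, an inhibitor of calcification, did not pass the test in any treatment comparison. Enpp1 gave 10.89, 11.02, 11.67 and 11.38 in untreated explants, 11.50, 11.38, 11.78 and 11.28 with IL-1α, and 11.38, 11.30, 11.61 and 11.43 with retinoic acid, batch 1 first. Its changes were 0.19 with retinoic acid (95% interval -0.09 to 0.48) and 0.25 with IL-1α (-0.04 to 0.53), and the batch 1 differences of 0.39 and 0.49 stood beside -0.01 and 0.00 in batch 2. Mgp ranged from 13.54 to 13.88 over all 12 arrays, with changes of 0.09 (-0.15 to 0.33) and -0.04 (-0.29 to 0.20). Mgp was close to the highest normalized value of 14.24, and whether this limits a measured change was not tested.

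**Figure D2:**
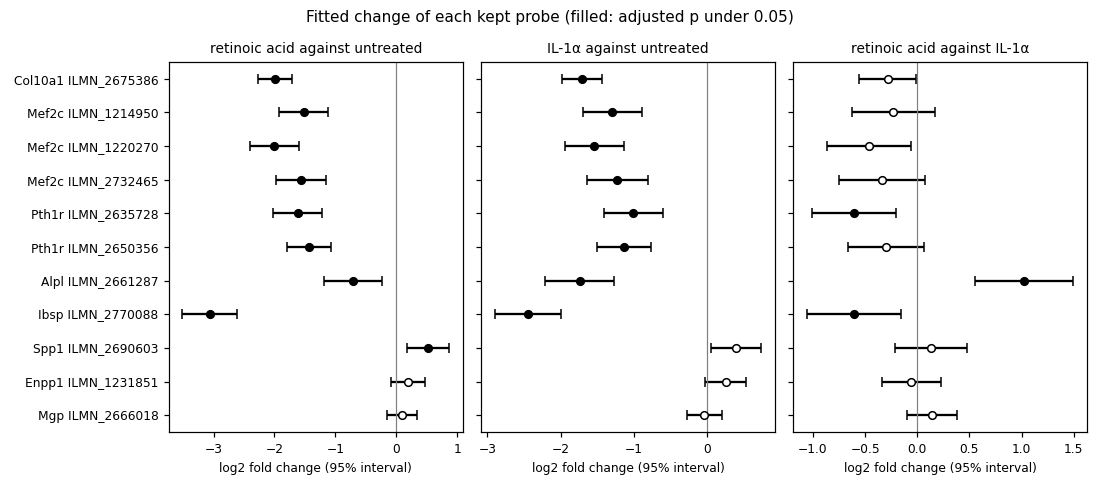
Fitted log2 fold change of each kept probe (horizontal axis, point and 95% interval from limma over 12 arrays) in the 3 comparisons. Filled points had an adjusted p under 0.05, with 8 falls in each comparison with untreated, and Ibsp reached -3.06 with retinoic acid and -2.45 with IL-1α.

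Complete separation of the 4 treated from the 4 untreated arrays was seen for 6 of 11 probes with retinoic acid, against 16.9% of all probes in either direction. With IL-1α it was seen for 7 of 11, against 13.5%. For each such probe the two-sided exact permutation p was 0.0286, the smallest that 4 against 4 arrays allow. Quantile normalization and scaling to one median gave different backgrounds for this reading. Of all probes called with retinoic acid against untreated, 51.6% were higher, and 65.6% were higher after scaling to one median, where the median change of all probes was 0.14. The members' directions against untreated were the same under that scaling, and the retinoic acid calls for Alpl and Spp1 were lost, with adjusted p of 0.131 and 0.0685.

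A direct comparison asked where retinoic acid and IL-1α left the members at different levels. Retinoic acid was higher than IL-1α for 1 of 11 probes and lower for 2, against 15.2% higher and 15.8% lower among all probes, and the median difference was -0.28 for the members and -0.03 for all. Complete separation was seen for 3 probes, against 17.7% of all. Alpl stood apart from the rest, 1.02 above its IL-1α level under retinoic acid (95% interval 0.55 to 1.498, limma adjusted p = 0.00294) and without overlap between the treatments. The call was lost without a batch term, at an adjusted p of 0.141, and leaving out any 1 array kept it, with adjusted p up to 0.0147. That Alpl difference was 1.69 in batch 1 and 0.35 in batch 2 (interaction -1.34, limma adjusted p = 0.00267). Of all probes called in this comparison 49.0% were higher, and 65.6% after scaling to one median.

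Pth1r (ILMN_2635728) and Ibsp were lower with retinoic acid than with IL-1α by nearly equal differences, both -0.61 on the log2 scale. The Pth1r difference had a limma adjusted p of 0.0236 and separated all arrays. Its call was lost without either IL-1α array of batch 1 or either retinoic acid array of batch 2, with adjusted p up to 0.0950, and with no filter (0.120), no batch term (0.109) or scaling to one median (0.128). The Ibsp difference had an adjusted p of 0.0413 and lay almost wholly in batch 2, at -1.18, against -0.04 in batch 1 (interaction -1.14, limma adjusted p = 0.00705). Leaving out either batch 2 array of IL-1α or of retinoic acid, or untreated replicate 2 of either batch, ended that call, with adjusted p between 0.0547 and 0.165. So did no filter (0.195), no batch term (0.162), scaling to one median (0.0636) and normalization within each batch (0.0555). Mgp arrays were separated too, but its difference of 0.14 had an adjusted p of 0.391.

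For Col10a1 the retinoic acid and IL-1α levels differed by -0.28 (95% interval -0.56 to -0.01, adjusted p = 0.112). Mef2c differed by -0.23, -0.46 and -0.34 on its 3 probes, with adjusted p of 0.396, 0.0806 and 0.215, and the -0.46 difference passed at 0.0124 without untreated replicate 1 of batch 2. On 2 of these probes the sign turned between batches, 0.30 and -0.76 on ILMN_1214950 and 0.18 and -0.86 on ILMN_2732465, and both interactions passed, at limma adjusted p of 0.00625 and 0.00627. Spp1 and Enpp1 differed by 0.13 (95% interval -0.21 to 0.48) and -0.06 (-0.34 to 0.23). None of these intervals shows that the treatments act alike.

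Levels differed between batches for 7 of 11 probes when treatment was held fixed. In batch 2, 3 probes were higher and 4 lower, against 33.4% higher and 42.9% lower among all probes. Col10a1 was higher by 1.23 (95% interval 1.02 to 1.44) and Spp1 by 1.00 (0.73 to 1.27), while Enpp1 was higher by 0.28. Alpl was lower, at -0.86 (-1.21 to -0.51), as were Pth1r on ILMN_2650356, at -1.29, and Mef2c on ILMN_1220270 and ILMN_1214950, at -0.91 and -0.54. These may be differences of line, of batch or of both, which cannot be told apart.

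The treatment effect itself differed between batches for 2 of 11 probes with retinoic acid against untreated, where 2.7% of all probes did. It differed for 2 of 11 with IL-1α against untreated, where 5.32% did, and for 5 of 11 between retinoic acid and IL-1α, where 9.76% did. The 5 were Alpl, Ibsp, Pth1r ILMN_2650356 and the Mef2c probes ILMN_1214950 and ILMN_2732465. In all 5, retinoic acid stood lower relative to IL-1α in batch 2 than in batch 1. With 2 arrays per treatment and batch these counts depended on single arrays. The count for retinoic acid went to 0 or 1 without either batch 1 untreated array or any retinoic acid array. That for IL-1α went to 0 or 1 without either batch 1 untreated array, either batch 1 retinoic acid array or any IL-1α array, and that between the treatments went to 2 or 3 without either batch 2 array or replicate 1 of batch 1 of IL-1α.

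**Figure D3:**
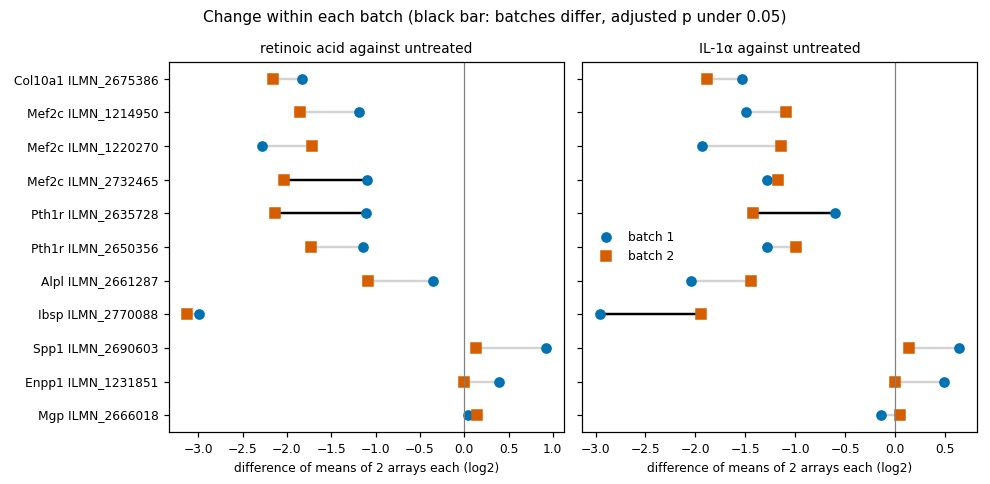
Difference of the means of 2 arrays each (log2, horizontal axis) within batch 1 (circles) and batch 2 (squares) for retinoic acid and for IL-1α against untreated. A black bar joins batches whose effects differed at an adjusted p under 0.05, and the falls in Col10a1, Mef2c, Pth1r, Alpl and Ibsp have the same sign in both batches.

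The regulators that act with these members were examined as a list of 24 symbols, of which 22 were on the array and 18 were kept. Retinoic acid left 2 higher and 8 lower, against 18.2% higher and 17.1% lower among all probes. IL-1α left 2 higher and 9 lower, against 15.2% and 14.1%. The list medians were -0.23 and -0.25, against 0.02 for all probes in both cases. For the counts between retinoic acid and IL-1α in this and the next lists, 15.2% of all probes were higher and 15.8% lower. Ihh, the hedgehog ligand of prehypertrophic chondrocytes, fell by 1.80 with retinoic acid and had a log2 change of -2.40 with IL-1α. Sp7, the osteoblast factor that is also active in hypertrophic cells, had changes of -0.89 and -0.65. Foxa3, a factor that works on Col10a1, and Sox9, the main chondrocyte factor, had log2 changes of -2.52 and -1.91 with retinoic acid. Runx1, a RUNX factor of earlier cartilage cells, rose by 1.69 with retinoic acid and by 1.13 with IL-1α. Pthlh, the ligand of Pth1r, was lower with IL-1α, at -0.97, and Zfp521, a zinc finger factor, was at -0.96. Between retinoic acid and IL-1α, 4 were higher and 7 lower (median -0.27), among them Foxa3 at -2.12, Sox9 at -1.47, Pthlh at 1.01 and Foxa2 at -0.69. Gli1 and Msx2 were undetected on all arrays.

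Genes of phosphate, pyrophosphate and matrix vesicles moved in both directions, as all probes did. Of 12 kept out of 16 on the array, 3 were higher and 3 lower with retinoic acid (median 0.03), against 18.2% and 17.1% of all probes. With IL-1α 2 were higher and 4 lower (median -0.26), against 15.2% and 14.1%. Tgm2, a transglutaminase, rose by 1.46 and 1.17, and Car2, carbonic anhydrase II, rose by 1.505 with retinoic acid. Nt5e, the ecto-enzyme that turns AMP to adenosine and phosphate, fell by 0.93 with retinoic acid and rose by 0.85 with IL-1α. Ank, the pyrophosphate transporter, was 1.496 above its IL-1α level under retinoic acid, in a comparison where 4 of the list were higher and 1, Nt5e at -1.77, was lower (median 0.18). Car2 and Anxa6, an annexin of matrix vesicles, were higher there by 1.25 and 0.91, and Anxa6 was lower with IL-1α than untreated, at -0.65. Enpp6 was undetected with each treatment, at least 1.47-fold lower with retinoic acid and at least 1.41-fold lower with IL-1α. Phospho1, the phosphatase inside matrix vesicles, and Ahsg were undetected on all arrays.

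Bone matrix and osteoblast genes moved mostly downwards, as Ibsp did. Of 11 kept out of 15 on the array, 8 were lower and 1 higher with retinoic acid, against 17.1% and 18.2% of all probes. With IL-1α 8 were lower and 0 higher, against 14.1% and 15.2%. The list medians were -1.11 and -1.05, against 0.02 for all probes in both cases. Omd, osteomodulin, a proteoglycan of mineralising bone, changed by -4.03 and -3.78. Its IL-1α change was -4.73 in batch 1 and -2.82 in batch 2 (limma interaction, adjusted p = 0.00126). Of the 4 IL-1α arrays, 3 detected it. Phex, a peptidase needed for normal mineralisation, changed by -1.87 and -2.63, and Sparc, or osteonectin, by -2.01 and -1.501. Tnfrsf11b, or osteoprotegerin, the decoy for the osteoclast factor RANKL, fell by 2.43 with retinoic acid, and the collagen gene Col1a2 fell by 1.32 with IL-1α. Mepe, which lies between Ibsp and Spp1, was detected in untreated tissue but undetected with either treatment, at least 1.45-fold lower with retinoic acid and at least 1.38-fold lower with IL-1α. Between retinoic acid and IL-1α, 2 were higher and 2 lower (median -0.04), the higher being Tnfsf11, which encodes RANKL, at 1.16 and Phex at 0.77, and the lower Tnfrsf11b at -1.64 and Sparc at -0.51. Means of Tnfsf11 were 6.72 untreated, 6.85 with IL-1α and 8.02 with retinoic acid. Dmp1, Sost and Dspp were undetected throughout.

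Genes of the late hypertrophic zone, with 10 kept of 10 on the array, had no common direction. With retinoic acid 3 were higher and 3 lower (median 0.08), against 18.2% and 17.1% of all probes. With IL-1α 3 were higher and 2 lower (median 0.14), against 15.2% and 14.1%. Panx3, a channel protein of prehypertrophic and hypertrophic cells, changed by -4.55 and -2.46, and Scin, an actin-severing protein of hypertrophic chondrocytes, by -3.50 and -1.06. The matrix proteinase Mmp9 and the proteinase Adamts1 rose by 1.58 and 1.30 with retinoic acid, and Cyr61 and the inhibitor Timp1 rose by 0.68 and 0.63 with IL-1α. Adamts1 was near background, with an untreated mean of 4.88, and was detected on 2 untreated and 3 retinoic acid arrays. Its rise was 0.61 in batch 1 and 1.99 in batch 2 (limma interaction, adjusted p = 0.0121), and across batches the treatments overlapped. Against IL-1α, retinoic acid left 3 higher and 6 lower (median -0.54), with Scin at -2.44, Panx3 at -2.09, and Adamts1 and Mmp9 both at 0.97. There Panx3 differed by -1.30 in batch 1 and -2.89 in batch 2 (limma interaction, adjusted p = 0.00134). For Adamts1 the batch values were 0.42 and 1.53 (limma interaction, adjusted p = 0.0184). Mmp13, the collagenase of the terminal zone, had means of 13.83 untreated, 13.88 with IL-1α and 13.99 with retinoic acid, and passed in no comparison. These means lie close to the top of the scale, and whether this limits a measured change was not tested. The paper reports by qPCR that Mmp13 rose with both treatments. Its text places that qPCR in cultured chondrocytes, which its methods take from knee epiphyses of younger mice, while its figure legend names cartilage explants. The qPCR material may therefore differ from the femoral heads on the arrays. The paper also names MMP-13 beside the proteinases that its arrays found raised by retinoic acid.

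**Figure D4:**
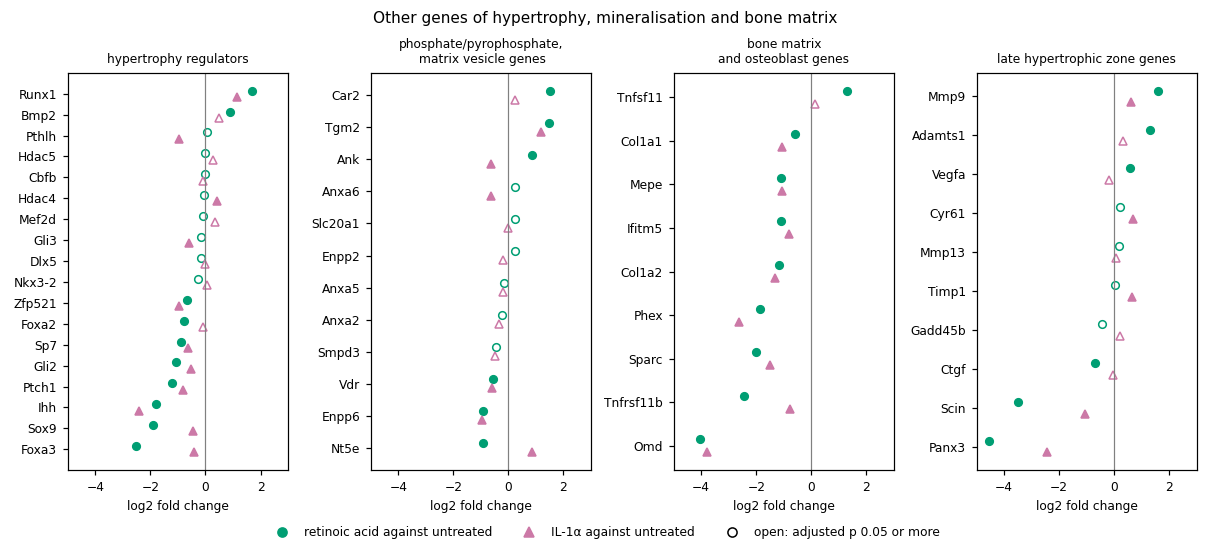
Log2 fold change (horizontal axis) of the genes of 4 lists of related genes, by their brightest kept probes, for retinoic acid (circles) and IL-1α (triangles) against untreated. Filled symbols had an adjusted p under 0.05, and the bone matrix list, drawn without 2 kept genes that passed in neither comparison, holds 8 falls in each comparison while the late hypertrophic list holds both Panx3 at -4.55 and Mmp9 at 1.58 with retinoic acid.

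Markers of other cells were summed beside these results. For the marker counts, the shares of all probes were 18.2% higher and 17.1% lower with retinoic acid, and 15.2% and 14.1% with IL-1α. Of 8 kept chondrocyte markers, 8 were lower with retinoic acid and 6 with IL-1α, and the summed level of 9 probes ran from 15.93 to 16.16 untreated, 13.32 to 13.91 with retinoic acid and 15.11 to 15.51 with IL-1α, with Matn3 undetected. Of 5 kept osteoblast markers, 3 were lower with each treatment (Sp7, Col1a1 and Col1a2, also counted above), and the sum of 7 probes ran from 11.76 to 12.69 untreated, 11.27 to 12.003 with retinoic acid and 10.92 to 12.03 with IL-1α. Dmp1 was undetected on all arrays. These lists fell together with Col10a1, Ibsp, Mef2c, Pth1r and Alpl, and their part in those falls was not tested.

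Osteoclast and macrophage markers mostly went the other way, and these cells also make osteopontin, the product of Spp1. With retinoic acid 6 of 9 kept markers were higher and 0 lower, and with IL-1α 5 were higher and 2 lower. Mmp9, counted above with the late hypertrophic zone, is among these markers. Its means were 11.59 untreated, 13.17 with retinoic acid and 12.20 with IL-1α. The sum of 12 probes ran from 13.45 to 13.80 untreated, 14.28 to 14.58 with retinoic acid and 13.83 to 14.12 with IL-1α, with Calcr, Atp6v0d2 and Itgam undetected. Their part in the Spp1 values was not tested. Endothelial sums ran from 10.93 to 11.28, 11.07 to 11.29 and 9.93 to 10.38 in untreated, retinoic acid and IL-1α explants, with 1 of 6 markers higher and 1 lower with retinoic acid and 3 lower with IL-1α. Adipocyte sums of 3 probes were 9.91 to 10.50, 8.17 to 8.44 and 7.87 to 8.97, with both kept markers lower in each comparison with untreated and Fabp4 undetected. Neutrophil and blood sums of 9 probes were 15.05 to 15.20, 14.53 to 15.44 and 15.26 to 15.54, with 1 of 8 kept markers higher and 3 lower with retinoic acid, 0 called with IL-1α, and Ptprc undetected.

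The probes whose pattern was most like each member were found by Pearson correlation over the 12 arrays after the mean of each batch was removed. Col10a1 was followed by Gsn (r = 0.995), Aldoc (0.992) and Zim1 (0.991), and Ibsp by Tnni2 (0.994), Khk (0.993) and Wif1 (0.993). On the brightest Mef2c probe the nearest were C8g (0.979), Sp7 (0.979) and Maob (0.970), and Sp7 was also the nearest to Mef2c ILMN_1214950 (0.969). Ctsf (0.987) was nearest to Pth1r ILMN_2650356, 1110058L19Rik (0.983) to Alpl and Osp94 (0.936) to Spp1. These values describe arrays that share 3 treatments, so any genes that respond to treatment correlate highly, and they say nothing of shared function or control.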

How the data were processed

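For 12 Illumina mouse bead arrays the authors deposited 1 table of linear intensity values, neither background-corrected nor normalized. The authors also deposited a detection score per probe and array that rises with intensity, and the detection p was taken as 1 minus that score. All value columns matched a sample, leaving 0 without one. Intensities were processed with neqc (offset 16, background from detection p, quantile normalization, log2) in limma 3.58.1 under R 4.3.3. The filter kept the 18200 of 46632 probes that 4 or more arrays detected at p under 0.05. The linear model had treatment and a 4-level factor for batch and replicate, as the methods state. Models with treatment by batch, and with treatment and batch, tested the batches. Adjusted p-values are limma's with Benjamini-Hochberg over all kept probes. A probe undetected on all arrays of a group has only a bound, the brighter mean against the dim group's mean after raising each of its values to at least the weakest detected signal of that array.

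All members were named, and from each list of related genes up to 4 per comparison with the largest called change, by the brightest kept probe. Some genes of these lists enter the counts and are not reported here by name. A few others, such as Sp7, Mepe and Mmp13, were named after their values were seen. The members and lists were chosen with earlier results of these data known. Functions were tested on simulated data. The alternatives were the background correction, scaling to one median, normalization within batch, the offset, the filter, the model terms, leaving out each array, and exact symbols only. The number of arrays limits the precision.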

Additional observations from a re-analysis of the deposited data

Results flagged for a closer look

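Of 33 groups of 4 arrays examined, 1 held an array flagged as apart from the other 3, Mgp in the IL-1α group. There replicate 1 of batch 1 read 13.605, and the other 3 read 13.7065, 13.7147 and 13.7249. The gap was small, and untreated Mgp arrays ran from 13.54 to 13.88. The limit used flags about 1 in 20 groups by chance only where all 4 arrays are draws from 1 normal distribution. Each group here held 2 arrays from each of 2 batches, and levels differed between batches for 7 of 11 probes. With such a shift the rule seldom flags a single array, so no chance rate holds for these groups. The lack of a flag elsewhere does not show that no array was apart.

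Effects differed between the batches for several members, given as batch 2 minus batch 1 on the log2 scale with the limma interaction past the threshold. For Ibsp the difference was 1.00 in the IL-1α effect and -1.14 between retinoic acid and IL-1α. For Alpl it was -1.34 between retinoic acid and IL-1α. Mef2c gave -0.94 in the retinoic acid effect and -1.04 between retinoic acid and IL-1α on ILMN_2732465, and -1.06 between retinoic acid and IL-1α on ILMN_1214950. Pth1r gave -1.03 in the retinoic acid effect and -0.82 in the IL-1α effect on ILMN_2635728, and -0.88 between retinoic acid and IL-1α on ILMN_2650356. Line and batch cannot be told apart in these values.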

How the results depend on the processing

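Of the values for single probes called as reported, 382 kept direction and side of the threshold over the alternatives and 34 kept direction but lost the call. Among those not called, 266 kept their side, 2 passed and 3 turned sign. The 3 were Enpp1 between retinoic acid and IL-1α (-0.06 as reported), at 0.0826 after scaling to one median, 0.0193 without IL-1α batch 1 replicate 1 and 0.00641 without retinoic acid batch 2 replicate 1, in a range of -0.147 to 0.0193 over the arrays left out. The count of member probes called between retinoic acid and IL-1α went from 3 to 1 after scaling to one median, with no filter, and with exact symbols only. Exact symbols, which leave out Pth1r and Alpl by construction, also took the IL-1α count against untreated from 8 to 5. The retinoic acid count against untreated was then 1 higher and 5 lower, against 1 higher and 8 lower as reported. Effects that differed between batches went from 2 to 4 for retinoic acid with no background correction, neqc within each batch or an offset of 50, and from 2 to 1 with no replicate block. They went from 2 to 1 for IL-1α with no filter, and from 5 to 2 between retinoic acid and IL-1α after scaling to one median. The cause was not tested where none is given. Leaving out 1 array gave 7 to 9 called probes for retinoic acid, 8 to 9 for IL-1α and 1 to 4 between them (1 without either batch 2 retinoic acid array), 6 to 7 between batches, and 0 to 3, 0 to 3 and 2 to 5 for effects that differed between batches.

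Whether replicate numbers pair the samples was left unclear by a check, and the model kept the replicate factor that the methods state. The replicate 1 minus replicate 2 differences of treatments in the same batch correlated at -0.11 to 0.39, and 2 of 6 were over 0.1. Without the replicate block, 9 probes were called for retinoic acid, 8 for IL-1α and 3 between them, as with it. Over all probes, calls for IL-1α were 5334 as reported and 3104 after scaling to one median. Probes with effects that differed between batches rose from 968 to 1783 for IL-1α and from 1777 to 3397 between retinoic acid and IL-1α under that scaling. Requiring detection on all 12 arrays left 119, 538 and 1135 such probes, against 491, 968 and 1777 as reported, and 8540 called between batches against 13887. Signals near background left Runx2 and Runx3 unmeasured.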
